A study of Mus musculus with 6 samples.

Results

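The Wnt genes described here are 62 of the 56196 genes in the deposited count table of 6 mouse osteosarcomas. They were chosen by symbol: the numbered Wnt, Fzd, Sfrp, Dkk and Rspo genes, with a fixed set of receptors, secreted inhibitors, transducers and targets. That choice was made with earlier results of these data known. The 62 genes comprise 19 Wnt ligands, 4 R-spondins, 10 Frizzled receptors, 2 LRP co-receptors, 3 LGR receptors of the R-spondins, 7 secreted Wnt binders, 6 secreted LRP antagonists of the Dickkopf and sclerostin families, 2 receptor turnover ligases, beta-catenin with the scaffold Axin1, 4 TCF/LEF factors and 3 feedback targets. The role of Wnt binders includes the enzyme Notum, and that of LRP antagonists includes the divergent Dickkopf Dkk3. RNA was extracted from 3 triple knockout tumours (TKO; Osx1-Cre;Rb1lox/lox;p53lox/lox;SKP2-/-) and 3 double knockout tumours (DKO; Osx1-Cre;Rb1lox/lox;p53lox/lox). All 6 tumours therefore carried Rb1 and p53 alleles with lox sites and a Cre driven by Osx1 (Sp7), a factor of osteoblast precursors. The groups differed in Skp2, the substrate receptor of an SCF ubiquitin ligase, whose null alleles in TKO have no lox sites in the labels and so are not limited to the Cre-expressing lineage. Replicate 1 of each group came from a male and replicates 2 and 3 from females; ages are not given in the sources used here.

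Wnt proteins are secreted lipid-modified ligands that bind Frizzled receptors together with the co-receptors LRP5 and LRP6. Binding stops a destruction complex built on AXIN1 from degrading beta-catenin, which then acts with TCF/LEF factors on target genes such as Axin2, Nkd1 and Sp5, several of which feed back on the pathway. R-spondins act through LGR4, LGR5 and LGR6 to remove the ligases ZNRF3 and RNF43, which otherwise clear Frizzled receptors from the cell surface. In bone, this pathway promotes osteoblast differentiation, and osteocytes restrain it by secreting sclerostin (Sost) and DKK1.

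Skp2 had 0 counts in each TKO tumour, against 20, 64 and 46 counts in DKO1, DKO2 and DKO3. Gene counts totalled 20002918 to 22488819 per TKO library and 17063231 to 21581482 per DKO library. TKO1 stood apart from the other libraries: across genes, its log2 CPM (counts-per-million of the scaled library size) correlated with TKO2 at 0.83 and with TKO3 at 0.81, against 0.92 between TKO2 and TKO3 and 0.93 to 0.95 among the DKO tumours. Its osteoblast markers were mixed. Of 12, Sp7, Ibsp, Bglap2 and Dlx5 had 0 counts in TKO1 and Bglap and Alpl were under 1 CPM, whereas Spp1 (2901 CPM) and Phex (44.7 CPM) lay above every DKO tumour and Runx2 had 58.2 CPM. Col1a1 had 208 CPM there, 30124 and 26812 CPM in TKO2 and TKO3, and 9912 to 11715 CPM in DKO. TKO1 also held 283 CPM of the myogenic factor gene Myf5, which had 0 counts in TKO2, TKO3, DKO1 and DKO2. Myf5 belongs to a list of 4 satellite cell markers, of which 2 were under 1 CPM in TKO1. The list summed to 373 CPM in TKO1, so Myf5 was not its only high member there, and to at most 7.74 CPM in any other tumour. The DKO tumours were mixed too. They had little Sp7 (7.94, 0 and 0.41 CPM) and Alpl (8.73, 0.76 and 17.98 CPM). Other members of the list were higher there, with Col1a2 at 5298 to 10998 CPM, Spp1 at 250 to 1607 CPM and Runx2 at 83.0 to 96.8 CPM. Each main result below is therefore given with and without TKO1.

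Markers of other cell types also differed between the groups. Of the endothelial markers 11 of 12 were called higher in TKO, with a summed level of 204 to 1009 CPM in TKO and 10.2 to 24.1 CPM in DKO. Of the macrophage markers 10 of 11 were called higher, with summed levels of 1031 to 2830 CPM in TKO and 9.03 to 126 CPM in DKO. Of the skeletal muscle markers 9 of 10 were called higher, with summed levels of 464, 12216 and 2021 CPM in TKO1, TKO2 and TKO3 and 5.31 to 18.8 CPM in DKO. Of the erythroid markers 4 of 4 tested were called higher, as were 5 of 8 tested pericyte and smooth muscle markers. The fibroblast, adipocyte, Schwann cell and cell cycle lists held no called marker. Over all genes tested, 4.89% were called higher. In a DKO tumour 9 to 10 endothelial, 8 to 9 macrophage and 4 to 8 skeletal muscle markers were under 1 CPM, against 0 in each TKO tumour. Markers that low in DKO met the count filter through TKO, where they are high. The shares of markers called are therefore given as a description. In TKO no endothelial, macrophage or skeletal muscle marker was at 0; in a DKO tumour, 3 to 4 endothelial, 3 to 6 macrophage and 1 to 6 skeletal muscle markers were. Osteoblast markers summed to 4331, 54730 and 81392 CPM in the TKO tumours and to 15937 to 24491 CPM in DKO, and 1 of 10 tested, Phex, was called higher. The part of these cells in the Wnt gene results was not tested. In bulk tumour RNA, fewer cells of a type and less RNA per cell cannot be told apart.

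Genotype was compared by edgeR's quasi-likelihood test over all 15361 genes that passed the count filter, and all adjusted p-values come from that fit unless another tool is named. The comparison asked how tumours without Skp2 differ from tumours with it in the genes of the Wnt pathway. Few of them passed the test. Of 46 Wnt genes tested, Lgr6 rose and Rspo2 fell in TKO, a share of 4.35%. Lgr6 had at most 15 counts in a DKO tumour and Rspo2 at most 17 in a TKO tumour. Both met the count filter through the group where they are high, and a filter of 1 CPM in both groups removes them. Over all genes, 7.36% were called, 4.89% higher and 2.47% lower, so the share of Wnt genes called was not above the background. Their median log2 fold change was 0.28, with 26 above 0 and 20 below, against a median of 0.09 over all genes tested. The other 16 Wnt genes were too low to be tested, and Wnt3a, Wnt7a and Fzd6 were listed at 0 in every tumour. Whether the tumours of a group grew in separate mice is not in the labels, and p-values here reflect spread among these 6 samples alone.

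**Figure D1:**
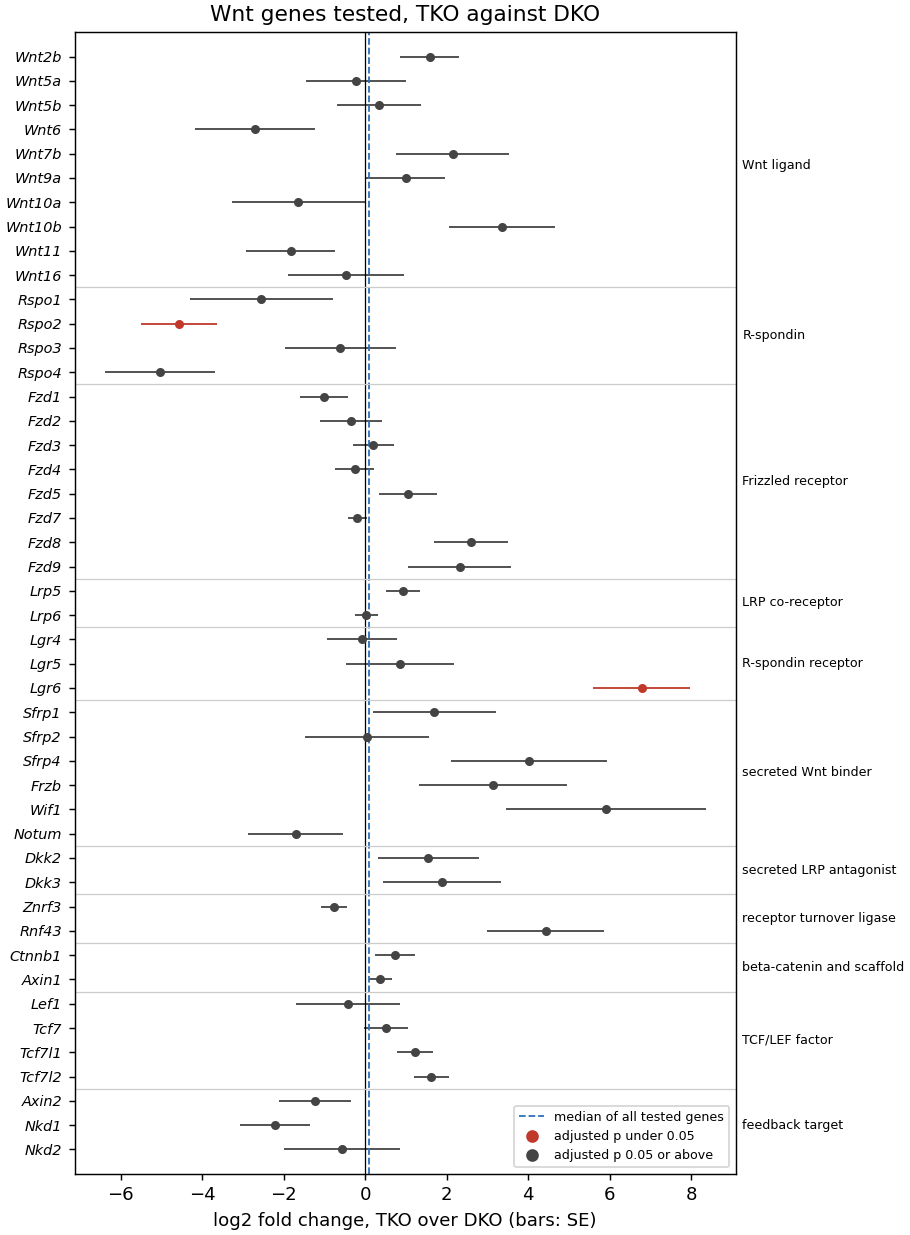
Log2 fold change of the 46 tested Wnt genes, TKO over DKO, grouped by role; points are estimates, bars are 1 SE on each side, red marks adjusted p under 0.05 and the dashed line is the median of all tested genes (0.09). Lgr6 (6.79) and Rspo2 (-4.56) are the red points. The bars of ligands and secreted inhibitors are wider than those of Fzd7 and Lrp6, but not than those of every Frizzled gene: Fzd9 (SE 1.26) is wider than Wnt2b (SE 0.72).

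Both called genes belong to the R-spondin branch, and they moved in opposite directions. Lgr6 codes for a receptor of the R-spondins that also marks some stem cells of skin. The gene lies on the minus strand of chromosome 1, chr1:134983301-135105276 in GRCm38. It had 18.5, 59.5 and 35.1 CPM in TKO1, TKO2 and TKO3, against 0, 0.76 and 0.24 CPM in DKO1, DKO2 and DKO3. Every TKO tumour, including TKO1, lay above every DKO tumour. The mean was 37.7 ± 20.6 CPM in TKO and 0.33 ± 0.39 CPM in DKO (SD, n = 3 each), a log2 fold change of 6.79 (SE 1.19; 111-fold; adjusted p = 0.0267). The 9 epidermis and hair follicle markers summed to 78.7, 18.2 and 24.2 CPM in the TKO tumours and to 1.93 to 7.24 CPM in DKO, and 3 of them were called higher; their part in the Lgr6 result was not tested. Without TKO1 the Lgr6 fold change was 7.11 with an adjusted p of 0.0123. With any other tumour left out the log2 fold change kept its sign, within 6.19 to 8.29 over the 6 settings, but the adjusted p rose above 0.05: it was 0.0628 with DKO1 left out, 0.0746 with DKO2, 0.118 with DKO3, 0.0671 with TKO2 and 0.0597 with TKO3. Few genes of any kind passed in the settings without a DKO tumour: 39 without DKO1, 2 without DKO2 and 0 without DKO3, where 3017 had an unadjusted p under 0.05.

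The promoter of Lgr6 is shown because Lgr6 was high in each TKO tumour and nearly silent in each DKO tumour; that of Sp5, a target gene outside the 62 described further on, is shown beside it and was chosen after its values were seen. Each is the 250 bases before the RefSeq start (GRCm38.p6), written in the direction of transcription. Capitals mark CTTTGA, the core letters bound by TCF/LEF factors, or its reverse complement TCAAAG; both strands were searched. The Lgr6 window is chr1:135105277-135105526 on the minus strand and the Sp5 window is chr2:70474673-70474922 on the plus strand.
Lgr6: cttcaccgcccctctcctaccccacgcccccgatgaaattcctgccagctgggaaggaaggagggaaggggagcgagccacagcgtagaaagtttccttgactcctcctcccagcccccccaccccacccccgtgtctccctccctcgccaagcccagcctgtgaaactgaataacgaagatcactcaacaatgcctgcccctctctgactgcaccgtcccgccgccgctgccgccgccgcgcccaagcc
Sp5: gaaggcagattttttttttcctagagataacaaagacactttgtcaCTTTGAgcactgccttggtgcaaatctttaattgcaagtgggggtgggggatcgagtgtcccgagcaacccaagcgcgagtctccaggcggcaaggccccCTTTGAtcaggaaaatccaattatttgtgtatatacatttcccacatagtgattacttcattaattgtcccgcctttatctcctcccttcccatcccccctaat
The Lgr6 window held no match and the Sp5 window held 2, starting 204 and 104 bases before the start. The window of Dkk1, whose counts lay almost all in TKO, also held 2, and those of the feedback targets Axin2 and Nkd1 held 0. The printed pair is thus not a contrast by direction of change. At least 1 match was held by 15.8% of the 27025 genes with an entry and by 6 of the 41 Wnt genes with one (14.6%); counted over single promoters, the share was 13.8% of 32851. Matches are a description of these letters and not of binding.

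Rspo2 codes for a secreted R-spondin and lies on the minus strand of chromosome 15, chr15:43020794-43170826. It had 0.21, 0.24 and 0.86 CPM in TKO1, TKO2 and TKO3, against 18.9, 4.02 and 8.28 CPM in DKO1, DKO2 and DKO3. The highest TKO tumour lay below the lowest DKO tumour. Means were 0.44 ± 0.37 CPM in TKO and 10.4 ± 7.64 CPM in DKO (SD, n = 3 each), a log2 fold change of -4.56 (SE 0.93; 23.6-fold lower; adjusted p = 0.0352). Rspo2 kept its call without TKO1 (log2 fold change -4.23, adjusted p = 0.0410). With any other tumour left out the Rspo2 log2 fold change lay between -5.49 and -3.82, over the same 6 settings, and the call was lost, with adjusted p of 0.107, 0.0868 and 0.117 for DKO1, DKO2 and DKO3 and 0.0970 and 0.0562 for TKO2 and TKO3, as did a covariate for sex (0.0541).

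The other R-spondins did not pass. Rspo4 was nearest, at 0, 0.29 and 0 CPM in TKO and 2.08, 2.75 and 5.09 CPM in DKO1, DKO2 and DKO3. Its groups did not overlap, at a log2 fold change of -5.03 (SE 1.36; adjusted p = 0.0732). By DESeq2 and limma-voom Rspo4 passed, with adjusted p of 0.000532 and 0.0261. Rspo4 had at most 6 counts in a TKO tumour and met the count filter through the DKO tumours alone, where it is high. Its values are therefore given as a description. Rspo1 had 0, 1.20 and 0 CPM in TKO and 5.56, 1.07 and 0.41 CPM in DKO. Rspo3 was the only R-spondin above 10 CPM in a TKO tumour, with 0.083, 3.36 and 12.5 CPM in TKO and 15.9, 5.40 and 3.02 CPM in DKO. All 4 R-spondins had a log2 fold change below 0 (median -3.55) with all 6 libraries and under each scaling, but only 3 of 4 without DKO1. Rspo2 and Rspo4 entered that count through DKO. The filter of 1 CPM in both groups removes them and left 2 R-spondins tested, both below 0 (median -1.54). Summed per kb of exon, R-spondin RNA was 0.07, 1.88 and 4.23 CPM per kb in TKO1, TKO2 and TKO3 and 12.6, 4.24 and 4.96 in DKO1, DKO2 and DKO3, so that TKO3 lay next to DKO2.

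**Figure D2:**
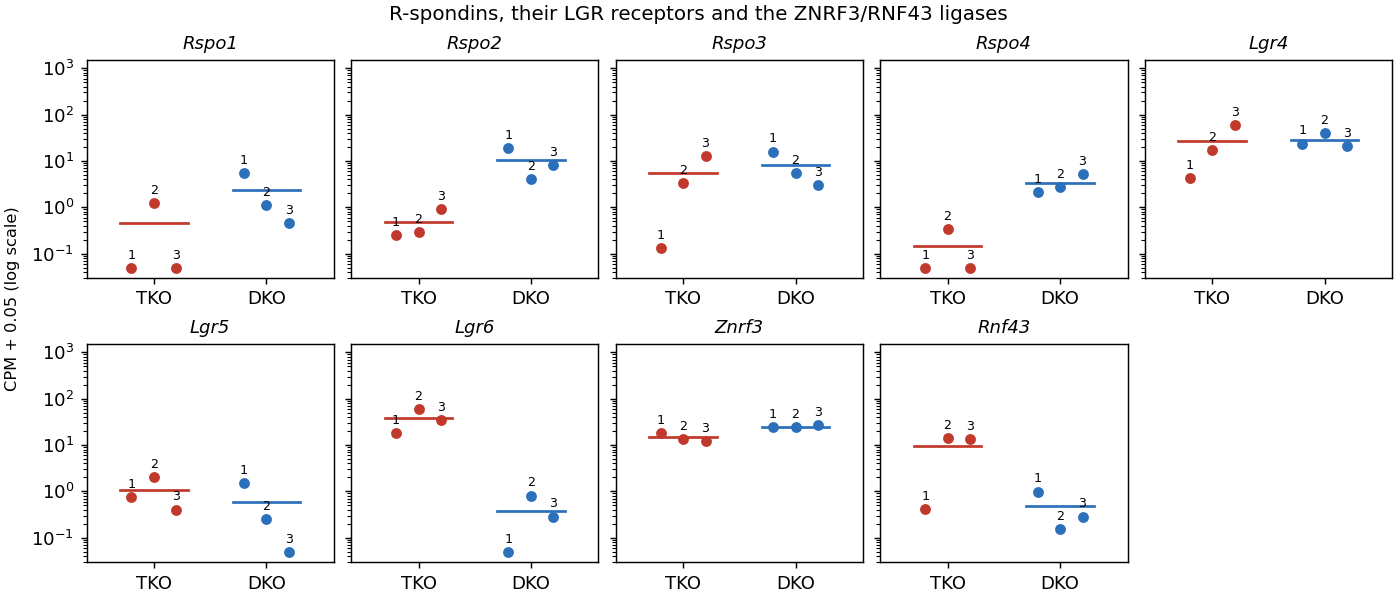
Level of each R-spondin, LGR receptor and ligase gene, as CPM + 0.05 on a log axis; points are tumours labelled by replicate number and lines are group means (n = 3 each). The Lgr6 points of TKO (18.5 to 59.5 CPM) lie above those of DKO (0 to 0.76 CPM), the Rspo2 points lie below, and the Rnf43 point of TKO1 (0.37 CPM) lies among the DKO points.

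The 2 other LGR receptors differed from Lgr6. Lgr4, the broadly expressed member, had 4.19, 16.9 and 59.3 CPM in TKO and 23.7, 40.4 and 20.5 CPM in DKO, with overlapping groups (adjusted p = 0.966). Lgr5, a stem cell marker of the gut, lay between 0 and 1.97 CPM in every tumour. The ligase gene Znrf3 was even within groups, at 18.4, 13.3 and 12.1 CPM in TKO and 24.3, 24.0 and 26.4 CPM in DKO. Every TKO tumour lay below every DKO tumour, yet Znrf3 did not pass (log2 fold change -0.77, SE 0.31; adjusted p = 0.184). Rnf43, its paralogue, had 0.37, 14.2 and 13.6 CPM in TKO1, TKO2 and TKO3 and 0.94, 0.10 and 0.24 CPM in DKO1, DKO2 and DKO3. TKO1 thus lay within the DKO range for Rnf43, which passed without that tumour (log2 fold change 4.98, SE 0.92; adjusted p = 0.0217) and not with it (4.43, SE 1.45; 0.118). Without TKO1, Rnf43 met the count filter through TKO2 and TKO3, where it is high.

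Among the ligands none of 10 tested passed. Across the 8 tested ligands detected in all 6 tumours, the highest tumour of either genotype exceeded the lowest by a median factor of 44.1, and by 10.5 without TKO1. Wnt5a, a ligand of beta-catenin-independent signalling, had 0.96, 101 and 46.4 CPM in TKO1, TKO2 and TKO3 and 100.3, 30.4 and 42.2 CPM in DKO1, DKO2 and DKO3. Its relative Wnt5b had 1.495, 26.4 and 21.2 CPM in TKO and 26.0, 7.69 and 4.79 CPM in DKO. For both, TKO1 was the lowest of the 6 tumours and the other 5 overlapped. Wnt9a had 2.91, 24.9 and 3.15 CPM in TKO and 8.68, 2.90 and 3.90 CPM in DKO, and TKO2 was the highest tumour. Wnt2b was higher in each TKO tumour, at 1.20, 2.93 and 2.08 CPM against 0.84, 0.97 and 0.24 CPM in DKO, but did not pass (log2 fold change 1.59, SE 0.72; adjusted p = 0.224).

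Wnt4 and Wnt10b were the ligands that most separated TKO2 and TKO3 from the rest. Wnt4, which acts in kidney and reproductive tract development, held 2 counts in TKO1, 1105 in TKO2 and 2205 in TKO3 and 0, 8 and 1 counts in the DKO tumours. That is 0.08, 53.1 and 112 CPM in TKO and at most 0.41 CPM in DKO. With all libraries Wnt4 did not pass the count filter. Without TKO1 it passed the filter only through TKO2 and TKO3, where it is high, so the call made there (log2 fold change 8.97, SE 0.99) follows from that choice and is given as a description. Wnt10b, which promotes bone formation in mice, had 0.71, 38.0 and 26.4 CPM in TKO and 3.97, 0.92 and 1.42 CPM in DKO. Its log2 fold change was 3.36 (SE 1.30; adjusted p = 0.169), and 3.92 without TKO1 (SE 0.67; adjusted p = 0.0176). Both were high in the same 2 tumours in which Sp7, at 206 and 432 CPM, and Alpl, at 1520 and 2038 CPM, were high, and the part of osteoblast content was not tested.

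Ligand genes that lie next to each other did not always share a pattern. Wnt6 and Wnt10a lie 6.2 kb apart on chromosome 1. Wnt6 had 0, 4.04 and 3.51 CPM in TKO and 6.75, 7.48 and 34.7 CPM in DKO, without overlap (log2 fold change -2.70, SE 1.48; adjusted p = 0.307). Wnt10a had 0, 15.4 and 10.1 CPM in TKO and 47.4, 2.55 and 29.2 CPM in DKO, with overlap at DKO2. Both were at 0 in TKO1. Wnt10b and Wnt1 lie 11.7 kb apart on chromosome 15, and Wnt1 had at most 14 counts in any tumour while Wnt10b reached 38.0 CPM. Wnt9a lies 16.2 kb from Wnt3a on chromosome 11, which was listed at 0 throughout, and Wnt9b and Wnt3, 24.3 kb apart, had at most 14 and 3 counts.

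Per kb of exon, the leading ligand changed from tumour to tumour. It was Wnt9a in TKO1, at only 0.87 CPM per kb, Wnt5a in TKO2 (12.9) closely followed by Wnt4 (12.7), and Wnt4 in TKO3 (26.7), where it made up 47.3% of ligand RNA. In DKO it was Wnt10a in DKO1 (19.2 CPM per kb), Wnt5a in DKO2 (3.89) and Wnt6 in DKO3 (15.8). Summed ligand RNA was 2.34, 69.9 and 56.5 CPM per kb in TKO1, TKO2 and TKO3 and 50.2, 15.5 and 39.3 in DKO1, DKO2 and DKO3, so the groups overlapped. Of the other tested ligands, Wnt7b, Wnt11 and Wnt16 had at most 23.9, 6.77 and 4.90 CPM in any tumour, with overlapping groups. Besides Wnt4, the untested ligands Wnt1, Wnt2, Wnt3, Wnt8a, Wnt8b and Wnt9b stayed under 1 CPM everywhere. For a ligand at 0, a library still allows an expected count of up to about 3, so a 0 does not show absence of its RNA.

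**Figure D3:**
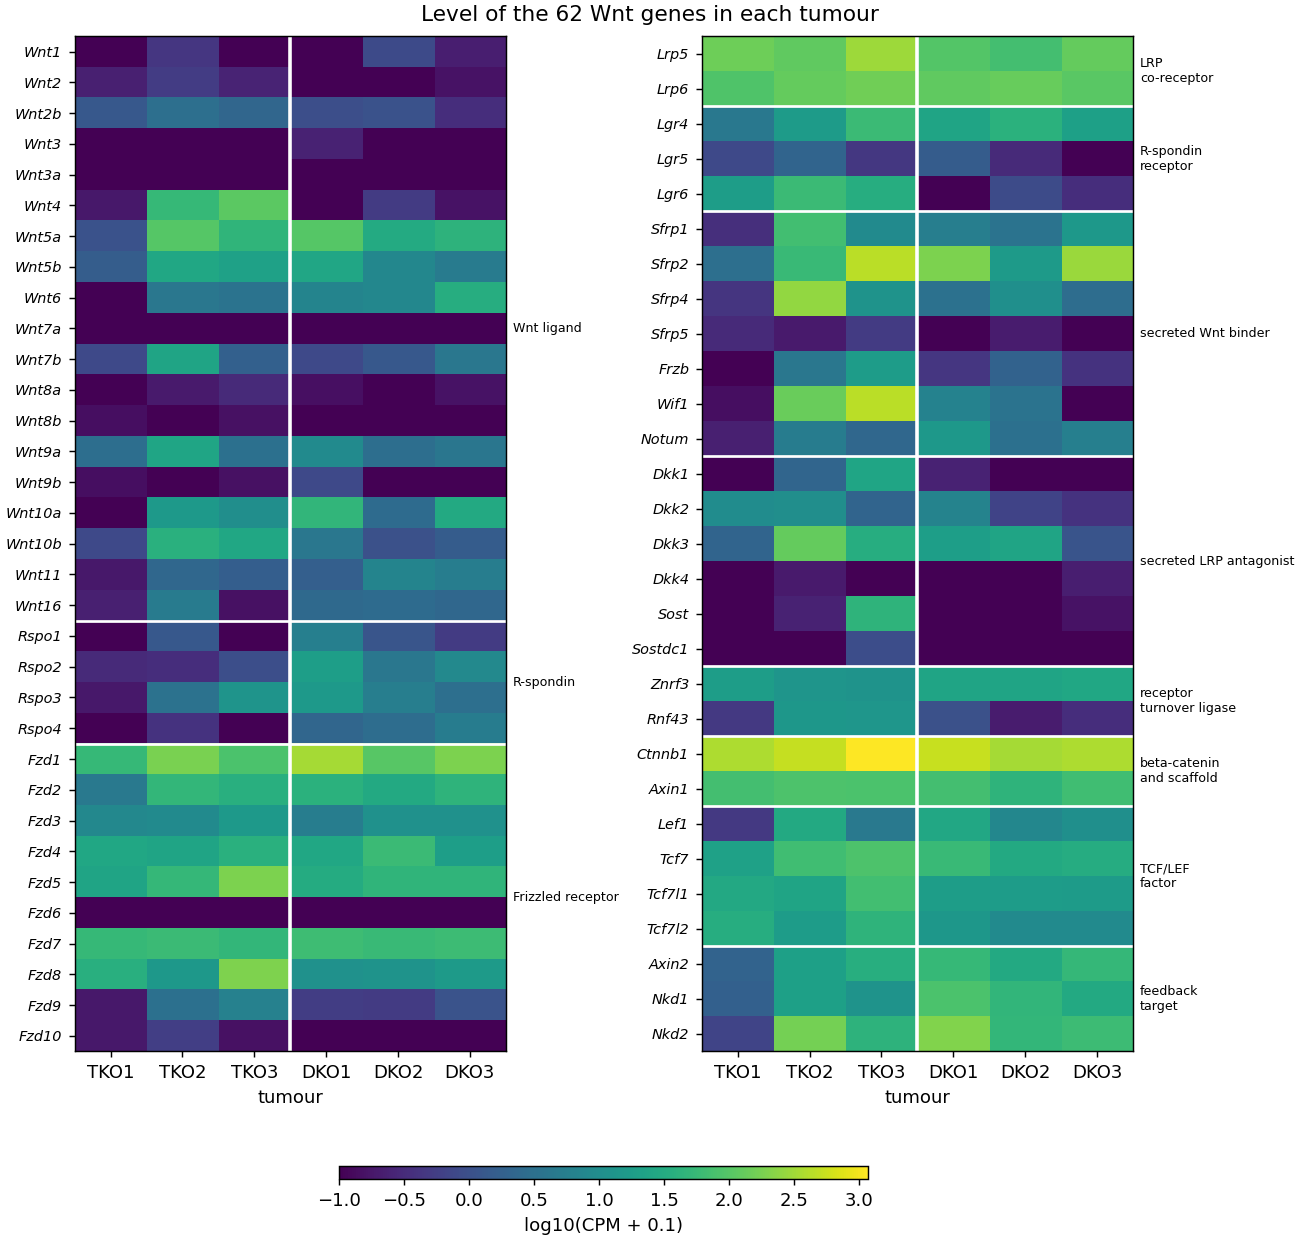
Level of the 62 Wnt genes in each tumour as log10(CPM + 0.1), TKO tumours left and DKO tumours right of the white line, grouped by role. Ctnnb1 is the brightest row (333 to 1186 CPM), Wnt3a, Wnt7a and Fzd6 are dark throughout, and the TKO1 column is dark for most ligands and inhibitors.

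Over the 10 tested Frizzled and LRP genes the median ratio of highest to lowest tumour was 5.33, and 3.63 without TKO1, smaller than that of the ligands both with and without that tumour. None of these receptor genes passed. Fzd7 was the most even of the Wnt genes, at 53.5, 59.5 and 50.1 CPM in TKO and 65.4, 58.4 and 62.8 CPM in DKO, a ratio of 1.30. Lrp6 had 89.5, 129 and 156 CPM in TKO and 122, 135 and 109 CPM in DKO, with a log2 fold change of 0.03 (SE 0.29). Its paralogue Lrp5, in which loss lowers bone mass, had 147, 122 and 298 CPM in TKO and 97.1, 71.1 and 129 CPM in DKO (log2 fold change 0.93, SE 0.42; adjusted p = 0.226). TKO2 lay just inside the DKO range for Lrp5.

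Fzd1 led the Frizzled genes per kb in every tumour except TKO3, where Fzd8 led. Fzd1 had 52.7, 177 and 82.9 CPM in TKO and 341, 105 and 187 CPM in DKO. Fzd8, on the plus strand of chromosome 18, had 36.5, 14.99 and 194 CPM in TKO and 11.5, 12.2 and 16.7 CPM in DKO; TKO2 lay inside the DKO range. Fzd8 did not pass (log2 fold change 2.603, SE 0.91; adjusted p = 0.135), but passed by DESeq2 (0.0178). Fzd5 had 23.5, 52.1 and 185 CPM in TKO and 32.5, 46.6 and 45.7 CPM in DKO, so that TKO3 was also the highest there. Fzd2 had 4.36, 49.2 and 36.5 CPM in TKO and 39.99, 29.7 and 45.2 CPM in DKO. For Fzd2, TKO1 was by far the lowest tumour and the other 5 overlapped. Fzd3 had 7.81, 8.70 and 15.6 CPM in TKO and 5.21, 11.3 and 11.4 CPM in DKO. Fzd4 had 26.5, 24.0 and 38.8 CPM in TKO and 26.5, 60.5 and 19.3 CPM in DKO. The groups overlapped for both genes, and TKO1 was not apart. Fzd9 had 0.083, 3.12 and 6.15 CPM in TKO and 0.45, 0.41 and 1.006 CPM in DKO, and passed only without TKO1 (log2 fold change 2.89, SE 0.73; adjusted p = 0.0470). In that setting Fzd9 met the count filter through TKO2 and TKO3, where it is high. Fzd10 had at most 10 counts in a tumour. Fzd6 was listed at 0, and since the annotation behind the counts is not given and reads in more than 1 gene were left out, that value does not show absence of its RNA.

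**Figure D4:**
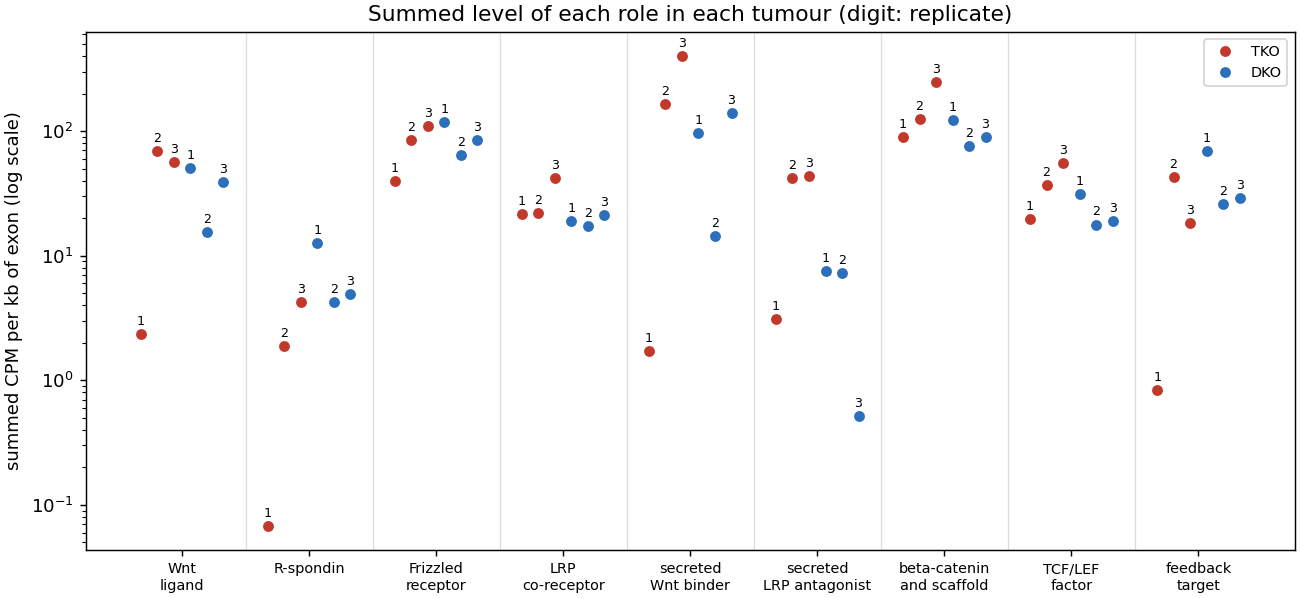
Summed CPM per kb of exon for each role in each tumour, on a log axis; digits are replicate numbers. LRP co-receptors span 17.2 to 42.0 CPM per kb, whereas Wnt ligands span 2.34 to 69.9 and TKO1 is the lowest tumour for ligands, R-spondins, Frizzled receptors, Wnt binders and feedback targets.

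Secreted inhibitors varied widely. Over the 6 tested inhibitors detected in all tumours, the median ratio of highest to lowest tumour was 134, and 30.9 without TKO1. None of the 8 tested passed with all libraries, and no tested inhibitor separated the groups. Summed per kb, inhibitor RNA was 4.85, 207 and 446 CPM per kb in TKO1, TKO2 and TKO3 and 105, 21.6 and 141 in DKO1, DKO2 and DKO3. Wif1, a secreted protein that binds Wnts directly, had 0.042, 140 and 447 CPM in TKO and 6.30, 3.41 and 0 CPM in DKO. Both TKO2 and TKO3 exceeded all DKO tumours, while TKO1, with 1 count, lay within their range. Wif1 missed the threshold with TKO1 (log2 fold change 5.91, SE 2.45; adjusted p = 0.194) and passed without it (6.48, SE 1.39; 0.0325).

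Sfrp2, a Frizzled-related decoy, was the leading Wnt binder per kb in TKO1, TKO3 and each DKO tumour, at 3.03, 57.4 and 445 CPM in TKO and 186, 16.4 and 289 CPM in DKO. Its group means were nearly equal (log2 fold change 0.04, SE 1.53), although tumours differed by a factor of 147. Sfrp4, which led in TKO2, had 0.33, 260 and 12.1 CPM in TKO and 3.23, 10.7 and 2.78 CPM in DKO (adjusted p = 0.243; 0.0356 by DESeq2). Sfrp1 had 0.25, 68.8 and 8.89 CPM in TKO and 5.41, 3.51 and 15.03 CPM in DKO. Both were highest in TKO2. Frzb lay between 0 and 17.6 CPM, Notum, the enzyme that removes the Wnt lipid, between 0.12 and 15.03 CPM, and Sfrp5 at most 0.41 CPM. Of the Notum exon length 38.1% is shared with other annotated genes, so its counts are uncertain in libraries without a strand mark. That share was 13.1 to 17.8% for Fzd5, Sfrp2, Ctnnb1, Lef1 and Rspo3 and under 10% for the other Wnt genes.

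Among the LRP antagonists, Dkk1 and Sost had all but a few of their counts in TKO2 and TKO3. Dkk1 had 0 counts in TKO1, 43 in TKO2 and 485 in TKO3, against 3 in DKO1 and 0 in DKO2 and DKO3, a ratio of 155 (95% counting interval 52.6 to 752). Dkk1 was too low to be tested with all libraries. Without TKO1 it entered the test only through TKO2 and TKO3, so its call there adds nothing to these counts. Sost had 0, 3 and 893 counts in TKO and 0, 0 and 1 counts in DKO, so that a single tumour, TKO3, held nearly all of it at 45.4 CPM. The osteocyte marker Dmp1 had 16.3, 250 and 151 CPM in TKO and 0 CPM in each DKO tumour. Of the other osteocyte markers, Phex had 44.7, 6.39 and 210.0 CPM in TKO and at most 0.77 CPM in DKO, and Mepe had 5.28 CPM in TKO3 and at most 0.25 CPM in any other tumour. Phex and Mepe were thus highest in the tumour with Sost and Dmp1 was highest in TKO2, while Cd44 was lowest in TKO3, and Fgf23 and Pdpn were at 0 in every TKO tumour. Their part in the Sost result was not tested. Dkk2 had 9.39, 10.2 and 1.93 CPM in TKO and 6.45, 0.56 and 0.30 CPM in DKO. Dkk3, a divergent Dickkopf, had 1.99, 127 and 35.0 CPM in TKO and 19.5, 23.9 and 1.06 CPM in DKO (adjusted p = 0.458). Sostdc1 had 16 counts in TKO3 and 0 elsewhere, and Dkk4 at most 2.

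Transcripts of the signal transducer were high and did not separate the groups. Ctnnb1, beta-catenin itself, had 369, 529 and 1186 CPM in TKO and 543, 333 and 374 CPM in DKO (log2 fold change 0.74, SE 0.49; adjusted p = 0.399). Axin1, the scaffold of the destruction complex, had 72.3, 85.5 and 82.5 CPM in TKO and 71.9, 45.1 and 67.9 CPM in DKO, without overlap but with a small difference (log2 fold change 0.38, SE 0.27; adjusted p = 0.434). These are RNA levels; beta-catenin is regulated mainly through its protein stability, which was not measured.

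Of the TCF/LEF factors, 2 were higher in every TKO tumour without passing. Tcf7l2 had 34.6, 17.9 and 44.7 CPM in TKO and 14.0, 8.65 and 8.81 CPM in DKO (log2 fold change 1.63, SE 0.44; adjusted p = 0.0719). It passed by DESeq2 (0.00743). Tcf7l1, mostly a repressor, had 28.9, 24.3 and 69.9 CPM in TKO and 18.2, 17.5 and 17.1 CPM in DKO (log2 fold change 1.22, SE 0.45; adjusted p = 0.153). Tcf7, the leading factor per kb in each tumour, had 21.6, 66.7 and 85.0 CPM in TKO and 58.0, 30.2 and 32.7 CPM in DKO. Lef1, itself a Wnt target, had 0.37, 29.5 and 4.27 CPM in TKO and 27.4, 7.64 and 10.4 CPM in DKO. Tcf7 and Lef1 were both lowest in TKO1 and otherwise overlapped.

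The 3 feedback targets, whose transcription is used as a readout of beta-catenin activity, did not pass. Axin2 had 1.87, 20.7 and 36.2 CPM in TKO and 54.1, 30.2 and 52.5 CPM in DKO (log2 fold change -1.22, SE 0.89; adjusted p = 0.435). TKO3 lay above DKO2, so the groups overlapped. Nkd1, a Dishevelled-binding inhibitor, had 1.70, 20.4 and 12.5 CPM in TKO and 82.5, 48.0 and 29.7 CPM in DKO. Its groups did not overlap (log2 fold change -2.21, SE 0.85; adjusted p = 0.167), and it passed by DESeq2 (0.0460). Nkd2 had 0.58, 165 and 43.6 CPM in TKO and 198, 49.3 and 62.4 CPM in DKO. TKO1 was the lowest of the 6 tumours for all 3 genes. All 3 fold changes were below 0 with all libraries, and 2 of 3 without TKO1 or without DKO1. Without TKO1 the log2 fold change of Axin2 was -0.69 (SE 0.40; adjusted p = 0.284) and that of Nkd1 was -1.70 (SE 0.51; adjusted p = 0.0724).

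**Figure D5:**
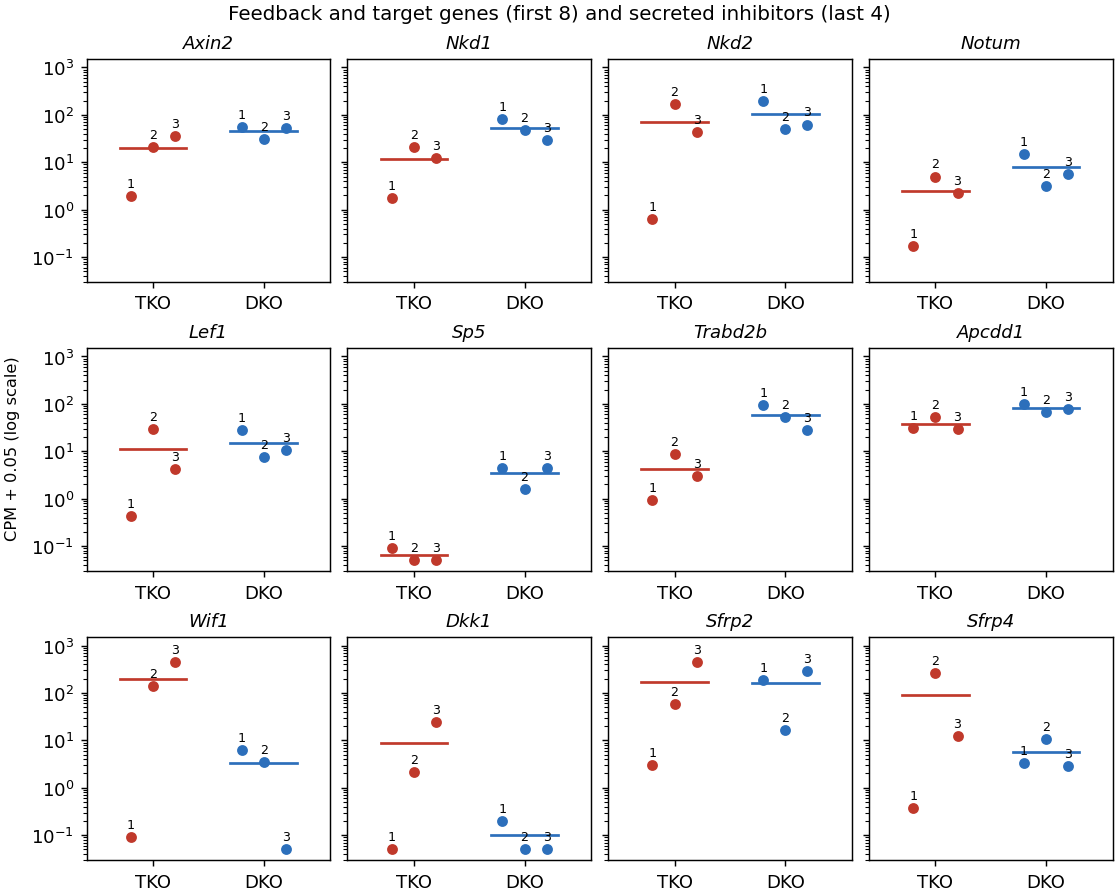
Level of 8 feedback, target and surface genes (Axin2 to Apcdd1) and 4 secreted inhibitors (Wif1 to Sfrp4), as CPM + 0.05 on a log axis; points are tumours labelled by replicate number and lines are group means (n = 3 each). Nkd1, Sp5, Trabd2b and Apcdd1 lie lower in every TKO tumour than in any DKO tumour, and for Axin2, Nkd2, Notum, Lef1, Wif1, Sfrp2 and Sfrp4 TKO1 lies far below TKO2 and TKO3.

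Across the Wnt genes, groups that did not overlap were few. Of 46 tested, 10 separated the groups (21.7%), against 32.9% of all genes. TKO lay above DKO for Wnt2b, Lgr6, Axin1, Tcf7l1 and Tcf7l2 (5 genes; 17.3% of all genes) and below it for Wnt6, Rspo2, Rspo4, Znrf3 and Nkd1 (5 genes; 15.6% of all genes). TKO1 was the lowest of the 6 tumours, ties included, in 26 of the 46 (56.5%), against 24.7% of all genes tested, counted in the same way. It had 25 of the 62 genes at 1 CPM or more, fewer than TKO2 (46), TKO3 (44) or the DKO tumours (38 to 40). Without TKO1, 48 Wnt genes were tested and 7 were called higher: Wnt10b, Fzd9, Lgr6, Wif1 and Rnf43, with Wnt4 and Dkk1, which entered the test through TKO2 and TKO3 alone. Fzd9, Lgr6 and Rnf43 had at most 17, 15 and 19 counts in a DKO tumour. Though tested with all libraries too, they also met the filter in that setting through TKO2 and TKO3, where they are high. Over all genes, that setting called 9.61% higher and 4.94% lower, with Rspo2 the 1 Wnt gene lower. DESeq2 on all 6 tumours called 6 higher (Fzd8, Lgr6, Rnf43, Sfrp4, Tcf7l2 and Wnt10b) and 3 lower (Nkd1, Rspo2 and Rspo4), where it called 11.6% and 7.22% of all genes.

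Beyond the 62, 72 other genes of the pathway were listed and 69 tested: 2 rose and 1 fell (4.35%, against 7.36% of all genes), and the median log2 fold change was 0.08. Their share was not above the background. Daam2, a formin of Wnt and cell polarity signalling, had 64.5, 88.9 and 186 CPM in TKO and 13.8, 5.45 and 9.46 CPM in DKO (log2 fold change 3.56, SE 0.56; adjusted p = 0.0209). Ctnnbip1, which codes for ICAT, an inhibitor of beta-catenin binding to TCF factors, had 47.0, 32.0 and 64.0 CPM in TKO and 11.4, 12.3 and 13.6 CPM in DKO (log2 fold change 1.94, SE 0.34; adjusted p = 0.0267). For both genes the tumours of each group lay together and TKO1 was not apart. Both passed without TKO1, with adjusted p of 0.00846 for Daam2 and 0.0216 for Ctnnbip1. In the settings without a DKO tumour, where few genes passed at all, both lost the call, with adjusted p of 0.0703 to 0.0954 for Daam2 and 0.0989 to 0.113 for Ctnnbip1, and Ctnnbip1 also without TKO3 (0.0641).

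Sp5, a transcription factor gene that responds directly to beta-catenin and whose promoter is printed above, had 1 count in all TKO tumours together and 4.47, 1.58 and 4.32 CPM in DKO1, DKO2 and DKO3. The ratio of DKO to TKO was 221 (95% counting interval 39.2 to 8771; adjusted p = 0.0183). Sp5 met the count filter through the DKO tumours alone, where it is high. Sp5 fell in the test with all 6 libraries and without TKO1 (0.0192), but missed the threshold with DKO1 (0.0713), DKO2 (0.0650), DKO3 (0.0807), TKO2 (0.0534) or TKO3 (0.0567) left out. Trabd2b, a membrane protease (TIKI2) that inactivates Wnt proteins, lay near the threshold, with 0.87, 8.60 and 2.95 CPM in TKO and 96.9, 53.7 and 28.3 CPM in DKO (log2 fold change -3.85, SE 0.91; adjusted p = 0.0515). It passed without TKO1 (0.0329). Apcdd1, a surface inhibitor and target, had 31.1, 51.8 and 30.1 CPM in TKO and 101, 68.7 and 78.7 CPM in DKO (log2 fold change -1.14, SE 0.32; adjusted p = 0.0825). Trabd2b and Apcdd1 were named after their values were seen.

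By role, Wnt secretion (Porcn and Wls), intracellular transduction (12 genes, Dvl1 to Dvl3 among them), the destruction complex (10 genes, Apc and Gsk3b among them) and the other surface modulators (9 tested) held no called gene. Gsk3b, the kinase that marks beta-catenin for degradation, had 148, 101 and 103 CPM in TKO and 220, 178 and 172 CPM in DKO, without overlap and without passing (log2 fold change -0.69, SE 0.28; adjusted p = 0.178). Of 12 nuclear cofactors 1 rose, Ctnnbip1, and of 12 tested genes of non-canonical receptors and polarity 1 rose, Daam2. Of 12 other reported targets Sp5 alone passed. Myc had 59.6, 73.3 and 111 CPM in TKO and 62.7, 128 and 160 CPM in DKO, and Ccnd1 had 117, 83.1 and 175 CPM in TKO and 21.6, 90.7 and 151 CPM in DKO. Both are targets of many pathways, and both overlapped between the groups.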

How the data were processed

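RNA from 6 mouse osteosarcomas (3 TKO, 3 DKO) was sequenced after oligo(dT) enrichment, per the labels' protocols. Read counts for each gene, whole numbers with no normalization, are what the authors deposited. STAR 2.6.1 and mm10 are named per the submitters' processing notes; an annotation release was not given in the sources used here. Reads on either strand, 1 column of each file, were used, since the second strand was made without a strand mark per the labels' protocols; the first strand held 50.2 to 51.3% of stranded counts. Overlapping and antisense genes therefore cannot be told apart. Reads in no gene (5.33 to 9.3%), in several genes (5.1 to 6.53%), at several places (3.94 to 4.7%) or unmapped (2.53 to 3.2%) were left out of library sizes. Symbols, positions and exon lengths came from GENCODE M21 (GRCm38), which matched 55154 IDs and left 1042 unmatched, with at most 0.0865% of counts.

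Genes were filtered by filterByExpr (minimum count 10), scaled by TMM and tested in edgeR by robust quasi-likelihood fits (glmQLFit, glmQLFTest; edgeR 4.0.16, R 4.3.3), adjusted by Benjamini-Hochberg over 15361 genes at a threshold of 0.05. CPM is counts-per-million of library total times TMM factor; per kb values divide by exon length; the SE comes from the fold change and F statistic. Folds are of fitted values. Counting intervals are exact, given where a group had 1 to 3 counts, and cover counting error only, since reads carry no molecular identifiers. The procedure was tested on simulated data. Alternatives were DESeq2 1.42.0, limma-voom (limma 3.58.1), other scalings and filters, a replicate block, sex as a covariate, the other strand column and each library left out; the spread of each role without TKO1 was added after seeing the data.

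Genes given with the value in every tumour were those called, those with a mean of at least 10 CPM in a group, those whose groups did not overlap, and called pathway genes; others were named after their values were seen. The members and lists were chosen with earlier results of these data known. Libraries differed by more than sampling noise in every pair.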

Additional observations from a re-analysis of the deposited data

How the results depend on the processing

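Lgr6, Rspo2, Daam2, Ctnnbip1 and Sp5 kept their direction under each alternative in which they were tested; Lgr6, Rspo2 and Sp5 were not tested with the filter of 1 CPM in both groups, which removes them, so the counts of 0 there are of the genes left. The counts moved. Of all genes edgeR called 1131; DESeq2 called 2893, the fit with a replicate block 295 and the test of genes at 1 CPM or more in both groups 158. With 1 library left out the count ranged between 0 (without DKO3, where 3017 genes had an unadjusted p under 0.05) and 2385 (without TKO1), with 39 without DKO1, 2 without DKO2, 475 without TKO2 and 331 without TKO3. Wnt genes called higher numbered 1, and 6 by DESeq2, 0 with the 1 CPM filter and 0 to 7 with a library left out. Those called lower numbered 1, and 3 by DESeq2, 2 by limma-voom, 2 with no filter, and 0 each with the replicate block, a sex covariate and the 1 CPM filter; leaving out a library gave 0 to 1. Other pathway genes called higher numbered 2, and 9 by DESeq2, 1 with the 1 CPM filter, 0 with the block and 0 to 10 with a library left out. Those called lower numbered 1, and 3 by DESeq2, 2 with library totals, 2 by limma-voom, 2 with the other strand column, 0 with the block, 0 with the 1 CPM filter and 0 to 2 with a library left out. Under the block Lgr6 kept its call (adjusted p = 0.0446), and Rspo2 (0.0850), Daam2 (0.0582), Ctnnbip1 (0.0732) and Sp5 (0.0503) lost theirs; Ctnnbip1 also lost it with the 1 CPM filter (0.0559). Deviations of same-numbered tumours from their group means correlated at -0.00699, 0.00889 and -0.0167. Those of tumours with different numbers lay between -0.00927 and 0.0174. All are near 0, so they cannot show whether the numbers pair the tumours. The numbers do match sex, with replicate 1 male and replicates 2 and 3 female in both groups. The median log2 fold change of all genes was 0.09 with TMM, 0.11 with RLE and 0.12 with library totals. Beyond the settings themselves, the causes of these changes were not tested. With 3 tumours a group and 1 of the TKO tumours apart, differences smaller than the spread among tumours could not be called.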
